A study of Mus musculus with 6 samples.

Results

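Notch receptors, the DNA-binding partner *Rbpj* and classical Notch target genes were examined in splenic CD4+ T cells of mice that carry 0, 1 or 2 alleles of the N159S variant of *Ikzf3*, the gene for the Ikaros family protein Aiolos. The members were the 10 genes *Notch1*, *Notch2*, *Notch3*, *Rbpj*, *Hes1*, *Dtx1*, *Nrarp*, *Ptcra*, *Heyl* and *Hes5*, found by symbol among the 25239 genes that each file lists. All 10 were listed, and 6 of them, *Notch1*, *Notch2*, *Rbpj*, *Hes1*, *Dtx1* and *Nrarp*, passed the filter on low counts and were among the 12117 genes tested. The RNA was sequenced from sorted TCRβ+CD4+CD44−CD127+ cells of C57BL/6 spleens, with 2 libraries from *Ikzf3+/+* mice, 2 from heterozygous *Ikzf3+/N159S* mice and 2 from homozygous *Ikzf3N159S/N159S* mice. The variant is a germline change that every cell of these mice carries, so no promoter or Cre restricts it to T cells. The labels give neither age nor sex.

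Notch receptors are cut by ADAM proteases and γ-secretase after a ligand on a neighbouring cell binds them, and the freed intracellular domain enters the nucleus, joins RBPJ and Mastermind, and turns on genes such as *Hes1*, *Dtx1*, *Nrarp* and *Ptcra*. The pathway drives T lineage commitment and early thymocyte growth and then falls as thymocytes mature. Ikaros and its relatives are known to oppose Notch targets in developing T cells, and the DNA core that Ikaros proteins read, GGGAA, lies inside TGGGAA, the core that RBPJ reads.

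Some members carry these letters in front of their start, among them near-silent targets and expressed genes. The 250 bases before the RefSeq start are shown for *Hes5*, which holds the longer RBPJ form GTGGGAA at 2 places, and for *Ptcra*, which holds TGGGAA at 2 places and a further GGGAA. Capitals mark GTGGGAA in *Hes5* and TGGGAA or GGGAA in *Ptcra*, read on either strand, so that TTCCCAC and TTCCC are matches on the opposite strand. Both windows are from GRCm38.p6 (the mm10 assembly), run 5′ to 3′ on the gene's strand and end at the base before the start, at chr4:154960673-154960922 on the plus strand for *Hes5* and at chr17:46763713-46763962 on the minus strand for *Ptcra*.
Hes5: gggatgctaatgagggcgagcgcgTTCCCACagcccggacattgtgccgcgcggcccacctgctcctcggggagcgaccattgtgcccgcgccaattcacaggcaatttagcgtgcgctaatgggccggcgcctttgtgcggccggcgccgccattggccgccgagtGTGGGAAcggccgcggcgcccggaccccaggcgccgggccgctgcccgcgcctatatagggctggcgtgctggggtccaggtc
Ptcra: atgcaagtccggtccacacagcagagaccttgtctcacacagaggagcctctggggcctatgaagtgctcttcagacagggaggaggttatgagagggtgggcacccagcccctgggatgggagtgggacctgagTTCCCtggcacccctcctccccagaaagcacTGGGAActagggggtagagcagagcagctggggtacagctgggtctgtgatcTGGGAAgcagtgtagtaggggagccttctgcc

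The *Hes5* matches began 226 and 83 bases before the start, on opposite strands, and the *Ptcra* TGGGAA matches 84 and 32 bases before it. Windows were given for 8 of the 10 members (9 windows, since *Rbpj* has 2 starts) and none for *Hes1* and *Heyl*. GGGAA lay in 5 of the 9 windows, against 56.2% of all 32851 windows of this length. TGGGAA lay in 4 of them, against 21.6%, and GTGGGAA in 1, against 5.42%. The longer strings contain the shorter ones, and the windows of *Rbpj* overlap and share a TGGGAA, so these counts overlap. By gene, GGGAA lay in a window of 4 of the 8 members (*Notch2*, *Rbpj*, *Ptcra* and *Hes5*). TGGGAA lay in a window of 3 (*Rbpj*, *Ptcra* and *Hes5*) and GTGGGAA of 1 (*Hes5*). The windows of *Dtx1*, *Notch1*, *Nrarp* and *Notch3* held none of the 3 strings. Annotated exons cover all 250 bases of the *Dtx1* window and of a window of *Rbpj*, 132 bases of the other *Rbpj* window, and 153 bases of the *Hes5* window, there of *Gm20421* on the opposite strand. A match is a description of letters and says nothing of binding.

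The libraries held 11696461 to 17317260 reads on genes. The CD4 T cell list of 11 genes (*Cd3d*, *Cd4*, *Il7r*, *Lef1* and others) summed to 6029 to 7192 CPM (counts per 1000000, scaled by TMM) in every library, with none of its genes at 0. B cell transcripts differed between the groups. The 14 B cell genes summed to 211 and 328 CPM in *Ikzf3+/+*, 549 and 896 in heterozygous and 210 and 137 in homozygous libraries. *Xist*, the RNA of the inactive X chromosome, was at 730 and 824 CPM in the heterozygous libraries and at 0.772 to 1.98 CPM in the other 4, so that the *Ikzf3+/N159S* genotype and this sex-linked difference cannot be told apart. *Ikzf3* itself was at 157 and 154 CPM in *Ikzf3+/+*, 168 and 152 in heterozygous and 197 and 202 in homozygous libraries, a value that does not show the variant base and so does not check the labels. In bulk RNA, fewer cells of a type and less RNA per cell cannot be told apart.

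Within the cells, the members spanned the range from abundant to absent. Levels per kb of merged exon allow only an approximate comparison of genes. Reads were counted on refGene genes, while exon lengths are from GENCODE. *Dtx1* was highest in *Ikzf3+/+* cells at 71.3 ± 6.98 CPM per kb (mean ± SD, n = 2). It was followed by *Notch1* at 28.9 ± 4.35, *Notch2* at 7.94 ± 0.291, *Rbpj* at 6.03 ± 0.384, *Nrarp* at 1.42 ± 0.416 and *Hes1* at 0.567 ± 0.0248. Of neighbours in this order, only *Notch2* and *Rbpj* overlapped over the 6 libraries, at 7.73 to 9.01 and 5.76 to 8.11 CPM per kb. *Notch3*, *Hes5*, *Heyl* and *Ptcra* were at most 0.136 CPM per kb in a library, and their order cannot be read.

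**Figure D1:**
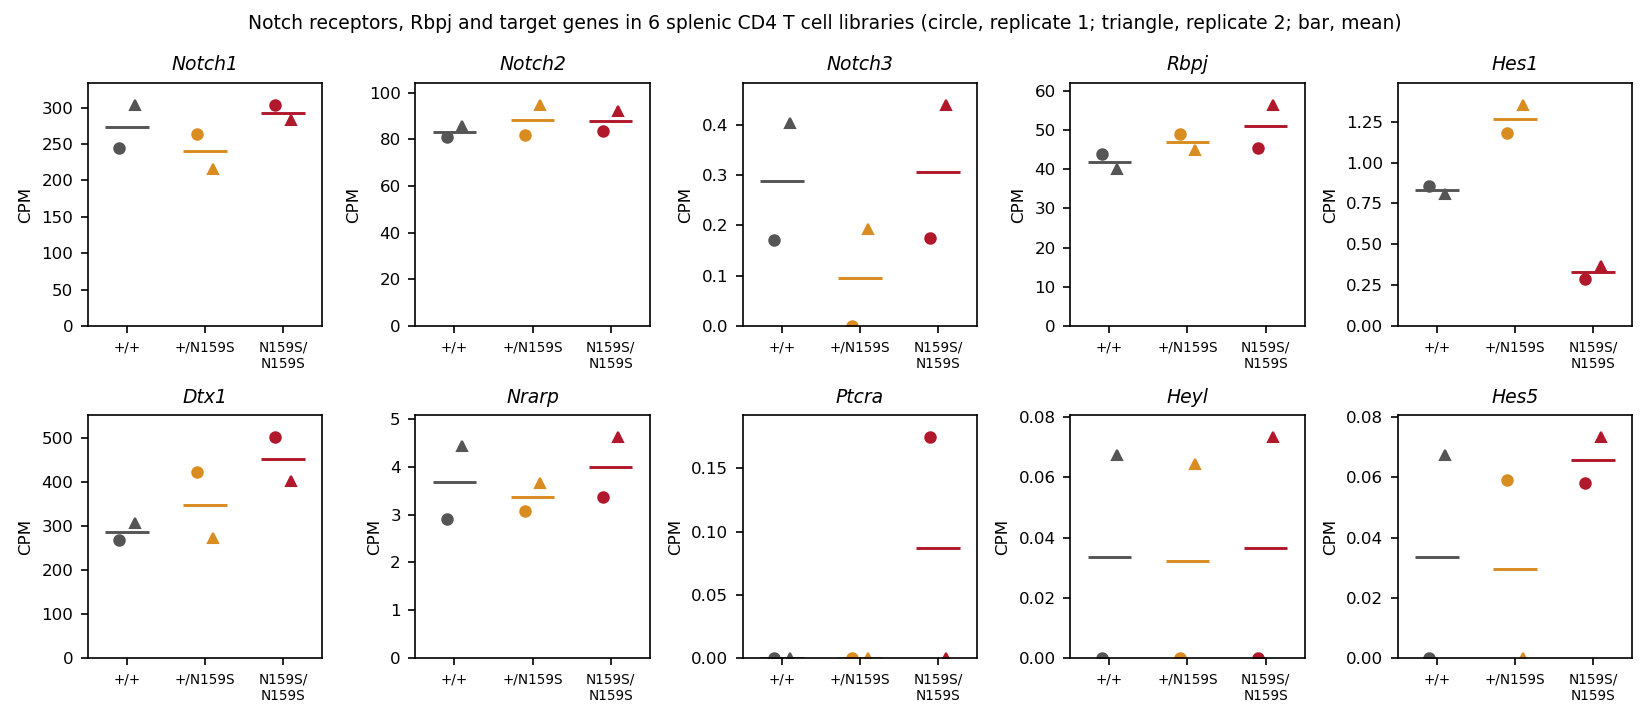
Level of each of the 10 members in CPM (y axis, from 0, a scale of its own for each gene) in the 6 libraries by *Ikzf3* genotype (x axis); points are libraries and bars means of 2. *Dtx1* lies between 268 and 502 CPM with both N159S/N159S libraries above both +/+ libraries, *Hes1* between 0.291 and 1.35 CPM with the 3 genotypes apart, and *Notch3*, *Ptcra*, *Heyl* and *Hes5* at 0.439 CPM or less.

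The first question was whether any of these genes changed with 2 variant alleles. None passed an adjusted p of 0.05 in edgeR's quasi-likelihood test, adjusted after Benjamini and Hochberg across the 12117 genes. This was 0 of 6 members tested, where 5.26% of all tested genes passed in *Ikzf3N159S/N159S* against *Ikzf3+/+* cells. At an unadjusted p of 0.05 the count was 2 of 6, *Dtx1* and *Rbpj*, where 18.3% of all tested genes passed. DESeq2 also called 0. The *Ikzf3N159S/N159S* and *Ikzf3+/+* libraries did not overlap for 3 of the 6, *Dtx1*, *Rbpj* and *Hes1*, where 48.3% of all tested genes did not overlap. The median log2 fold change was 0.09 over the 6 members and 0.00 over all tested genes, with 5 of the 6 above 0. With 2 libraries in each group an exact permutation test of a single gene cannot go below p = 0.333, so the adjusted p-values rest on the spread that the model shares across genes. The study's methods count the libraries as mice. The test set each difference against the spread between libraries of the same genotype, estimated over all 6 libraries with information shared across genes.

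**Figure D2:**
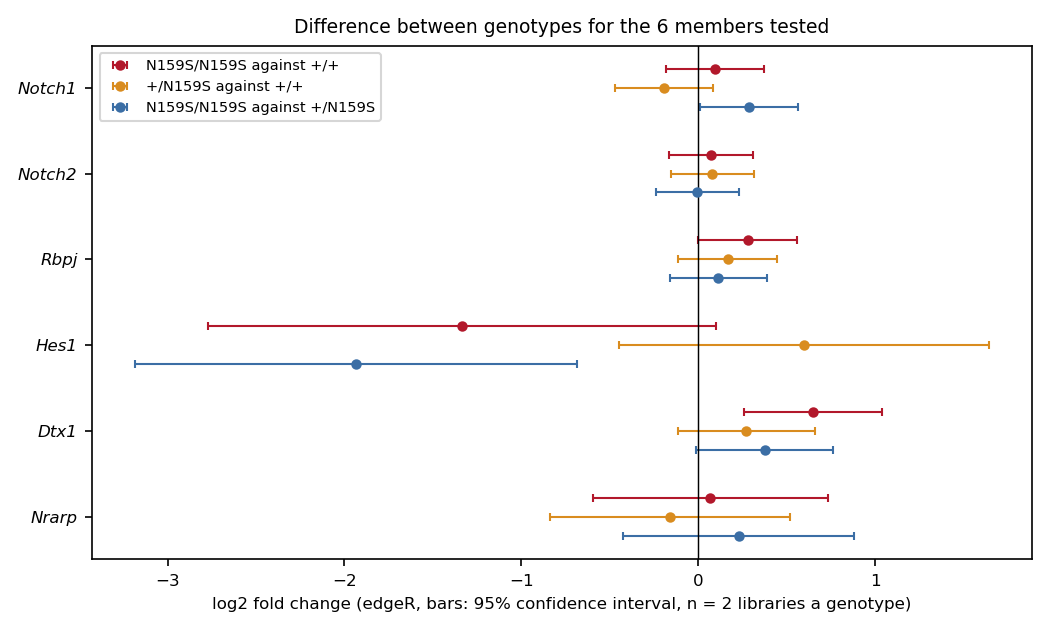
Log2 fold change (x axis) with its 95% confidence interval for the 6 members tested (y axis), in 3 comparisons of *Ikzf3* genotypes with 2 libraries each. The intervals of *Notch1*, *Notch2*, *Nrarp* and *Hes1* in N159S/N159S against +/+ cells include 0. That of *Dtx1* runs from 0.26 to 1.04, and those of *Hes1* are the widest.

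*Dtx1*, which encodes a RING-type E3 ligase that binds the Notch intracellular domain and is itself a Notch target, came nearest to a call. The gene lies at chr5:120680202-120711927 on the minus strand (mm10). Its level was 268 and 308 CPM in *Ikzf3+/+*, 423 and 273 in heterozygous and 502 and 402 in homozygous libraries, from 3122 to 8627 reads. Both homozygous libraries were above both wild-type libraries, and the heterozygous libraries spread from one group to the other. The log2 fold change of *Ikzf3N159S/N159S* against *Ikzf3+/+* was 0.65 ± 0.18 (SE), which is 1.57-fold (95% confidence interval 1.20 to 2.06), with an unadjusted p of 0.00356 and an adjusted p of 0.0608. In *Ikzf3+/N159S* against *Ikzf3+/+* cells *Dtx1* differed by 0.27 ± 0.18 (adjusted p = 0.484), and in *Ikzf3N159S/N159S* against *Ikzf3+/N159S* cells by 0.38 ± 0.18 (adjusted p = 0.432), all in the same edgeR fit.

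Whether *Dtx1* passed the threshold depended on the setting, while its sign did not. Over 15 alternatives the log2 fold change of *Ikzf3N159S/N159S* against *Ikzf3+/+* was 0.48 to 0.81, and the adjusted p was under 0.05 in 6 of them. These were the fits without *Ikzf3+/N159S* replicate 1 (adjusted p = 0.00842), without *Ikzf3+/N159S* replicate 2 (0.00460) and without both (0.00687), the likelihood ratio test (0.0103), the fit with no filter on low counts (0.000153) and a block by genes detected (7.18e-06), which was added after seeing the data. DESeq2 gave 0.65 ± 0.30 with an adjusted p of 0.251. The standard error was 0.12 without either or both *Ikzf3+/N159S* libraries and 0.18 with both.

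**Figure D3:**
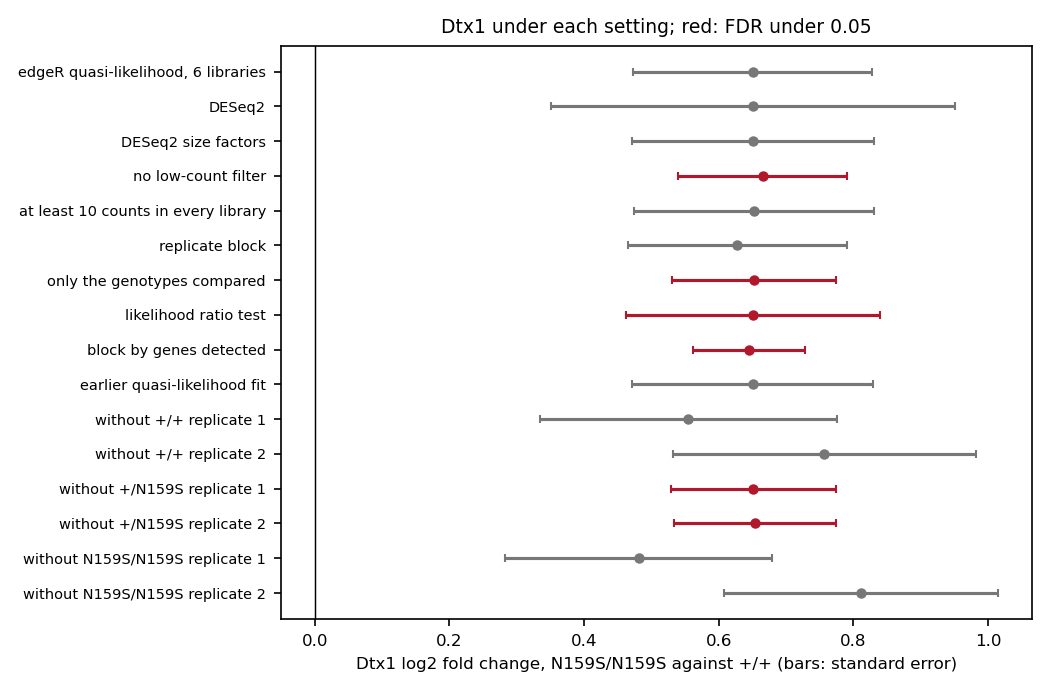
*Dtx1* log2 fold change of N159S/N159S against +/+ cells (x axis; bars, standard error) under the fit reported and each of 15 alternatives (y axis); red points have an adjusted p under 0.05. All 16 values lie above 0, between 0.48 and 0.81, and 6 are red.

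*Dtx1* also moved with a measure of the libraries. Within each genotype, the library with fewer genes detected held more *Dtx1*. Genes detected were 15888 against 16873 in the *Ikzf3+/+* libraries, 15079 against 18147 in the *Ikzf3+/N159S* libraries and 14803 against 17571 in the *Ikzf3N159S/N159S* libraries. *Notch1* showed the same order in all 3 genotypes. With the libraries blocked by this order, the *Dtx1* difference was 0.64 ± 0.08. The 3 tested genes whose log2 CPM followed *Dtx1* most closely over the 6 libraries were *Tnfaip8l1* (Pearson r = 0.997), the kallikrein *Klk8* (r = 0.997) and the ribosomal protein gene *Rplp0* (r = 0.995). They spanned 23.5 to 30.8, 47.0 to 62.4 and 3595 to 4462 CPM. They share its libraries and their depth, and all 3 were, like *Dtx1*, higher in the library with fewer genes detected in each genotype.

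Of the receptors, *Notch1* carries most Notch signalling in T cells. It was at 245 and 303 CPM in *Ikzf3+/+*, 264 and 215 in heterozygous and 304 and 283 in homozygous libraries. The homozygous libraries lay within or just above the wild-type range, and the heterozygous ones were lowest on average. The log2 fold change was 0.10 ± 0.13 in *Ikzf3N159S/N159S* against *Ikzf3+/+* (adjusted p = 0.762 in edgeR), -0.19 ± 0.13 in *Ikzf3+/N159S* against *Ikzf3+/+* (adjusted p = 0.490) and 0.29 ± 0.13 in *Ikzf3N159S/N159S* against *Ikzf3+/N159S* (unadjusted p = 0.0427, adjusted p = 0.389). The interval of the first comparison was 0.882-fold to 1.30-fold. Without *Ikzf3+/+* replicate 2 the same value was 0.26, and without *Ikzf3+/+* replicate 1 it was -0.05. Exons of *Notch1* (chr2:26457903-26516663, minus strand) share 964 bases with *0610009E02Rik* on the opposite strand, so its reads are uncertain over that stretch where counting ignored strand.

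*Notch2*, the receptor best known in marginal zone B cells, was at 81.2 and 85.5 CPM in *Ikzf3+/+*, 81.7 and 94.6 in heterozygous and 83.6 and 92.1 in homozygous libraries. The 3 groups overlapped. Its log2 fold change was 0.07 ± 0.11 (0.893-fold to 1.24-fold) in *Ikzf3N159S/N159S* and 0.08 ± 0.11 in *Ikzf3+/N159S* cells against *Ikzf3+/+*, with adjusted p-values of 0.789 and 0.758 in edgeR. *Notch3*, which is prominent in immature thymocytes, had 0 to 6 reads in a library and was not tested.

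*Rbpj*, the factor through which all the receptors act on DNA, was at 43.8 and 40.0 CPM in *Ikzf3+/+*, 48.9 and 45.0 in heterozygous and 45.5 and 56.4 in homozygous libraries. Both variant genotypes lay above *Ikzf3+/+* without overlap. The log2 fold change was 0.28 ± 0.13 in *Ikzf3N159S/N159S* (unadjusted p = 0.0497, adjusted p = 0.273) and 0.17 ± 0.13 in *Ikzf3+/N159S* cells (adjusted p = 0.560 in edgeR). The first value ranged from 0.13 to 0.43 when a library was left out.

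Among the targets, *Hes1*, the repressor most often read as a Notch target, was low in all libraries and showed the widest differences. Its reads numbered 10 and 12 in wild-type, 20 and 21 in heterozygous and 5 and 5 in homozygous libraries, or 0.858 and 0.807, 1.18 and 1.35, and 0.291 and 0.366 CPM. The 3 genotypes did not overlap, with *Ikzf3+/N159S* highest and *Ikzf3N159S/N159S* lowest. The gene passed the filter through the *Ikzf3+/+* and *Ikzf3+/N159S* libraries, where it was higher, so its presence among the tested genes is not independent of this order. The log2 fold change was -1.33 ± 0.66 in *Ikzf3N159S/N159S* against *Ikzf3+/+* (0.397-fold, 0.147 to 1.07, adjusted p = 0.315 in edgeR) and 0.60 ± 0.48 in *Ikzf3+/N159S* against *Ikzf3+/+* (adjusted p = 0.575).

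The largest *Hes1* difference was between the variant genotypes. It was -1.93 ± 0.57 in *Ikzf3N159S/N159S* against *Ikzf3+/N159S* (0.262-fold, 0.110 to 0.623, unadjusted p = 0.00578), with an adjusted p of 0.146 by edgeR's quasi-likelihood test and 0.0189 by its likelihood ratio test. Against the midpoint of the other genotypes, *Ikzf3+/N159S* cells were 1.27 ± 0.44 higher (unadjusted p = 0.0146, adjusted p = 0.297). Every alternative kept these signs. The B cell list had its highest sum in the *Ikzf3+/N159S* libraries. In *Ikzf3N159S/N159S* against *Ikzf3+/N159S* cells 13 of its 14 genes fell at an adjusted p under 0.05 in edgeR, where 125 of all 12117 tested genes fell. *Fcer2a* of this list went the other way in heterozygous libraries. It was at 7.72 and 14.1 CPM in *Ikzf3+/+* and 1.06 and 2.25 in *Ikzf3+/N159S* libraries. The regulatory T cell list of 7 genes summed to 103 and 107 CPM in *Ikzf3+/+*, 171 and 145 in heterozygous and 109 and 105 in homozygous libraries. The effector and memory T cell list of 8 genes summed to 134 and 135 CPM in *Ikzf3+/+*, 155 and 167 in heterozygous and 117 and 127 in homozygous libraries. The part of these cells in the *Hes1* values was not tested.

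In these comparisons 0 of the 6 members tested passed in *Ikzf3+/N159S* against *Ikzf3+/+* (1.75% of all tested genes passed), 0 in *Ikzf3N159S/N159S* against *Ikzf3+/N159S* (1.66%) and 0 against the midpoint (1.03%), by edgeR's quasi-likelihood test and by DESeq2. At an unadjusted p of 0.05 the counts were 0, 2 and 1 of 6, where 16.3%, 12% and 11.5% of all tested genes passed. The libraries did not overlap for 2 members in *Ikzf3+/N159S* against *Ikzf3+/+* and for 2 in *Ikzf3N159S/N159S* against *Ikzf3+/N159S*, where 47.1% and 41.1% of all tested genes did not overlap. The comparisons share libraries and are not independent of each other.

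*Nrarp*, a target whose small ankyrin protein limits Notch signalling, had 34 to 66 reads in a library. It was at 2.92 and 4.44 CPM in *Ikzf3+/+*, 3.07 and 3.67 in heterozygous and 3.37 and 4.61 in homozygous libraries. The groups overlapped throughout. The log2 fold change of 0.07 ± 0.30 in *Ikzf3N159S/N159S* against *Ikzf3+/+* (adjusted p = 0.946 in edgeR) has an interval of 0.661-fold to 1.66-fold. Over 2051 exon bases *Nrarp* overlaps *Gm38287* on the opposite strand, which the files do not list.

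*Ptcra*, *Heyl* and *Hes5* were near 0. *Ptcra*, the pre-T cell receptor α chain of early thymocytes, had 3 reads in *Ikzf3N159S/N159S* replicate 1 and 0 in the other 5 libraries. *Heyl* and *Hes5*, repressors of the same family as *Hes1*, had 0 or 1 read in each library. A count of 0 allows up to 3 reads, which is 0.174 to 0.257 CPM here and covers counting error only, so no difference in these genes was detectable at this depth. The 2 RBPJ-type matches in front of *Ptcra* and those in front of *Hes5* shown above stand beside genes with at most 3 reads. TGGGAA also lay in front of *Rbpj*, at 40.0 to 56.4 CPM, while *Notch3*, with 0 to 6 reads, had none of these strings.

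The thymocyte markers bear on *Ptcra*. *Rag1* was at most 0.512 CPM and *Rag2* at most 0.0732 CPM in a library. The 8 thymocyte genes summed to 39.4 and 34.8 CPM in *Ikzf3+/+*, 28.9 and 30.6 in heterozygous and 9.53 and 10.1 in homozygous libraries. Most of the difference lay in *Cd8b1* and *Dntt*, the terminal transferase gene. *Dntt* went from 8.75 and 7.93 CPM in *Ikzf3+/+* to 0.233 and 0.586 CPM in *Ikzf3N159S/N159S* libraries (adjusted p = 0.000241 in edgeR). Of the 6 thymocyte genes tested, 3 fell, *Dntt*, *Cd8b1* and *Cd24a*.

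The wider pathway was read from 61 further genes grouped by role, of which 55 were tested. In *Ikzf3N159S/N159S* against *Ikzf3+/+* cells 3 rose and 0 fell, where 3.14% of all tested genes rose and 2.12% fell. The 3 were *Tle1*, *Dtx3* and *Myc*. At an unadjusted p of 0.05 the count was 13 of 55, where 18.3% of all tested genes passed, and the libraries did not overlap for 27 of 55, where the share over all tested genes was 48.3%. The median log2 fold change was -0.07 over the 55 genes and 0.00 over all tested genes, with 21 above 0 and 34 below. In *Ikzf3+/N159S* against *Ikzf3+/+* cells 0 of the 55 passed in edgeR, where 1.15% of all tested genes rose and 0.602% fell. There, 12 had an unadjusted p under 0.05, against 16.3% of all tested genes, and DESeq2 called 3, against 2.81%. The median there was -0.05, beside 0.01 over all tested genes.

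*Tle1*, a Groucho-type corepressor that works with Hes repressors, was at 14.5 and 16.6 CPM in *Ikzf3+/+*, 19.9 and 22.3 in heterozygous and 26.7 and 25.4 in homozygous libraries. The 3 genotypes did not overlap and lay in the order of the number of variant alleles. Between 2 genotypes, 41.1% to 48.3% of all tested genes did not overlap. The share with such an order over 3 genotypes was not computed. Here and for *Dtx3* below, the heterozygous step cannot be told apart from the *Xist* difference. It rose by 0.74 ± 0.14 in *Ikzf3N159S/N159S* against *Ikzf3+/+* (1.67-fold, 1.35 to 2.07, adjusted p = 0.0113 in edgeR). In *Ikzf3+/N159S* cells the value was 0.43 ± 0.14 (adjusted p = 0.165). The call in *Ikzf3N159S/N159S* cells was lost without *Ikzf3+/+* replicate 1 (0.0980), *Ikzf3+/+* replicate 2 (0.05001) or *Ikzf3N159S/N159S* replicate 1 (0.0688).

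*Dtx3*, a Deltex family E3 ligase gene, was at 53.9 and 58.3 CPM in *Ikzf3+/+*, 66.5 and 75.1 in heterozygous and 78.9 and 77.1 in homozygous libraries. It rose by 0.47 ± 0.11 in *Ikzf3N159S/N159S* against *Ikzf3+/+* (adjusted p = 0.0249 in edgeR), again in the order of the alleles. *Myc*, a growth regulator and Notch target in thymocytes, was at 102 and 102 CPM in *Ikzf3+/+*, 110 and 109 in heterozygous and 133 and 143 in homozygous libraries. It rose by 0.44 ± 0.09 (adjusted p = 0.0182). In *Ikzf3+/N159S* cells *Dtx3* differed from *Ikzf3+/+* by 0.33 ± 0.11 (adjusted p = 0.151) and *Myc* by 0.11 ± 0.09 (adjusted p = 0.613). Leaving out any of the 4 *Ikzf3+/+* and *Ikzf3N159S/N159S* libraries raised the adjusted p of *Dtx3* to 0.0823 to 0.184 and that of *Myc* to 0.0527 to 0.132.

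**Figure D4:**
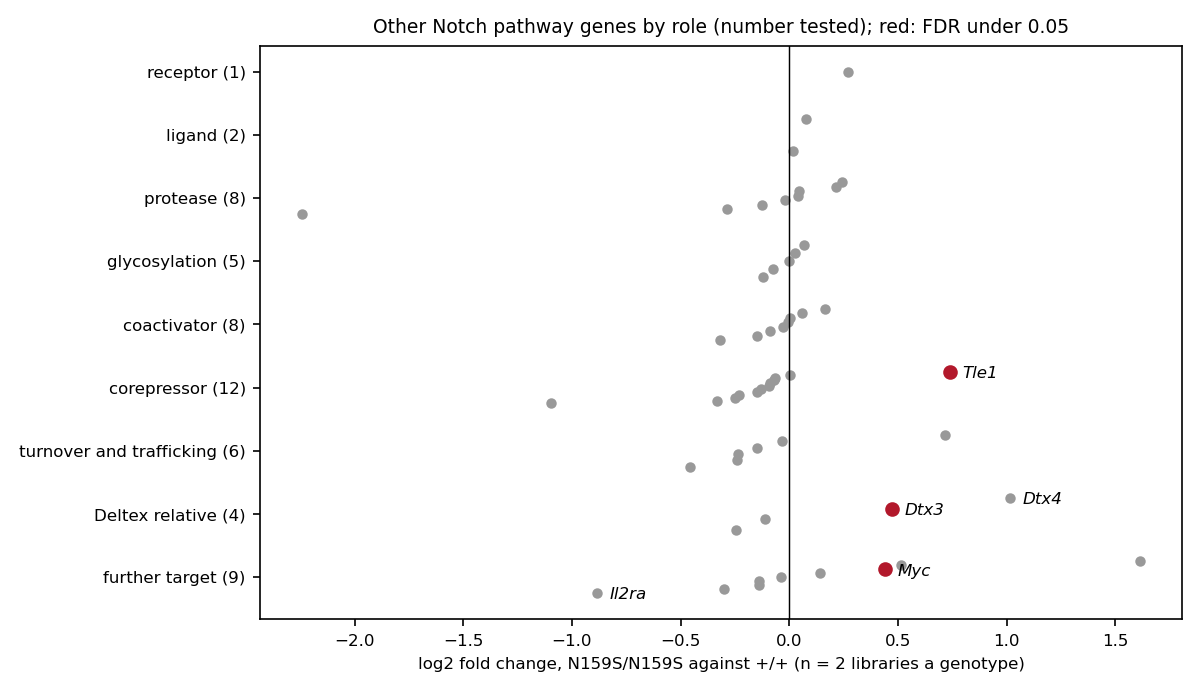
Log2 fold change of N159S/N159S against +/+ cells (x axis) for the 55 further Notch pathway genes tested, grouped by role (y axis, with the number tested), each point 1 gene; red points passed an adjusted p of 0.05. The 3 red points are *Tle1*, *Dtx3* and *Myc*, and 34 of the 55 points lie below 0.

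A further pair of genes of the wider list were singled out after their values were seen. *Dtx4*, a further Deltex relative, was at 5.83 and 6.79 CPM in *Ikzf3+/+*, 10.02 and 19.2 in heterozygous and 13.4 and 12.2 in homozygous libraries. Both variant genotypes were above *Ikzf3+/+* without overlap. Its log2 fold change was 1.02 ± 0.29 in *Ikzf3N159S/N159S* and 1.19 ± 0.29 in *Ikzf3+/N159S* cells against *Ikzf3+/+*, with adjusted p-values of 0.0772 and 0.0655 in edgeR and 0.0183 and 0.00528 in DESeq2. *Ikzf3+/N159S* replicate 2, which had the most B cell RNA at 896 CPM, also had the most *Dtx4*. Homozygous libraries, with more *Dtx4* than *Ikzf3+/+*, held 210 and 137 CPM of B cell RNA, beside 211 and 328 in *Ikzf3+/+*. The part of B cells in the *Dtx4* values was not tested. Without *Ikzf3+/N159S* replicate 2 the *Ikzf3+/N159S* value was 0.66, and without *Ikzf3+/N159S* replicate 1 it was 1.59.

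*Il2ra*, the interleukin-2 receptor α chain, a Notch target in thymocytes and a marker of regulatory T cells, was at 8.84 and 9.54 CPM in *Ikzf3+/+*, 15.5 and 12.7 in heterozygous and 5.93 and 3.88 in homozygous libraries. The 3 genotypes did not overlap, in the same order as for *Hes1*. It fell to 0.354-fold (0.254 to 0.494) in *Ikzf3N159S/N159S* against *Ikzf3+/N159S* cells (adjusted p = 0.00663 in edgeR) and *Ikzf3+/N159S* cells lay 1.06 ± 0.18 above the midpoint (adjusted p = 0.0179). Without *Ikzf3N159S/N159S* replicate 2 the first adjusted p was 0.0547, and without *Ikzf3+/N159S* replicate 1 the second was 0.110. Against *Ikzf3+/+*, the value was -0.88 ± 0.24 in *Ikzf3N159S/N159S* (adjusted p = 0.0585) and 0.61 ± 0.20 in *Ikzf3+/N159S* cells (adjusted p = 0.162). *Foxp3*, the defining regulatory T cell gene, was at 6.86 and 11.2 CPM in *Ikzf3+/+*, 30.1 and 16.7 in heterozygous and 10.9 and 5.71 in homozygous libraries. The regulatory T cell list summed above includes *Il2ra* itself. The share of *Il2ra* that comes with regulatory T cells was not tested.

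**Figure D5:**
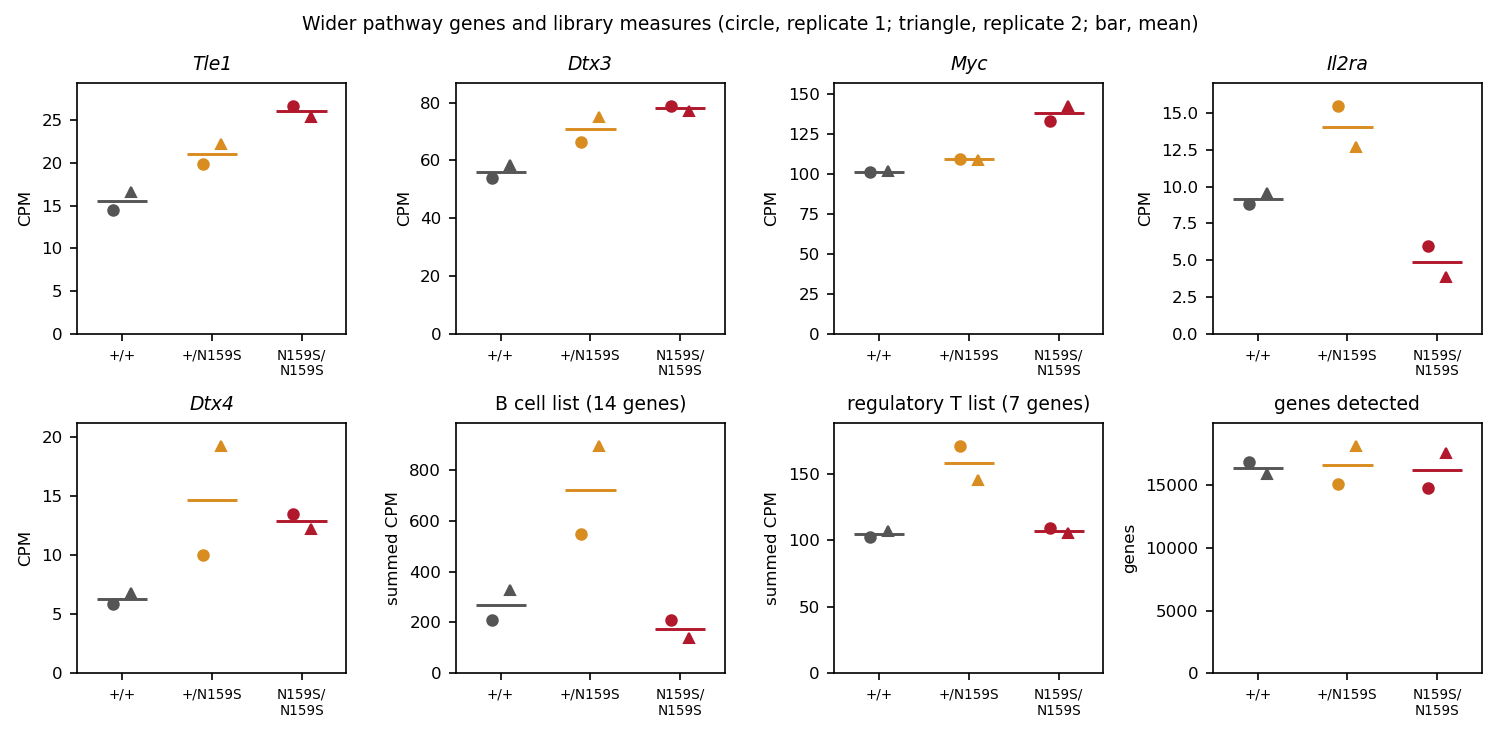
Level in CPM of 5 wider pathway genes, the summed CPM of the B cell and regulatory T cell lists, and the number of genes detected (y axes, from 0) in the 6 libraries by *Ikzf3* genotype (x axis); bars are means of 2. *Tle1*, *Dtx3* and *Myc* step up from +/+ to N159S/N159S libraries, while *Il2ra* and both lists are highest in the +/N159S libraries, at up to 15.5, 896 and 171 CPM. The regulatory T cell list includes *Il2ra* itself.

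The other roles held no call in *Ikzf3N159S/N159S* against *Ikzf3+/+* cells. Of 5 ligand genes 2 were tested, and *Jag2*, the one with the most reads, was at 11.1 to 15.9 CPM. *Notch4*, the remaining receptor, was at 0.884 to 1.86 CPM. The 8 protease and γ-secretase genes tested were split evenly around 0, with *Adam10*, which makes the first cut, at -0.02 ± 0.10 (adjusted p = 0.950 in edgeR). The 5 glycosylation genes lay between -0.12 and 0.07, with *Lfng*, a Fringe enzyme that tunes ligand choice, at -0.08 ± 0.09 (adjusted p = 0.730). Of the 8 coactivators *Ep300* had the most reads and a value of -0.15 ± 0.12 (adjusted p = 0.579).

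In the same comparison 10 of the 12 corepressors and 5 of the 6 turnover and trafficking genes were below 0, none of them called. The median over all tested genes was 0.00. The corepressor *Tle1* was above 0 and called, as given above. *Ncor1*, a subunit of corepressor complexes that RBPJ recruits, was at 610 and 691 CPM in *Ikzf3+/+*, 555 and 479 in heterozygous and 537 and 496 in homozygous libraries. Both variant genotypes were below *Ikzf3+/+* without overlap, with -0.33 ± 0.11 in each (adjusted p = 0.123 and 0.164 in edgeR). *Aak1*, a kinase that acts with Numb in endocytosis, showed -0.24 ± 0.09 in *Ikzf3N159S/N159S* (adjusted p = 0.189) and -0.40 ± 0.09 in *Ikzf3+/N159S* cells (adjusted p = 0.0570). *Dtx3l* was at -0.25 ± 0.11 (adjusted p = 0.249) and *Dtx2*, the other Deltex relative below 0, at -0.11 (adjusted p = 0.678). Among the further targets *Trib2* had the most reads and a value of -0.14 ± 0.10 (adjusted p = 0.521).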

How the data were processed

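Poly(A) RNA of 6 libraries was analysed; the B cell samples were not analysed here. The authors trimmed reads with Trimmomatic 0.38.1, aligned them to mm10 with HISAT2 2.2.1 and deposited raw read counts per refGene gene from HTSeq 2.0.2. The strand setting of the counting is not given in the sources used here. Reads counted on no gene (42.3 to 49.3% of entries) were left out of library sizes.

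The edgeR package (version 4.0.16, in R 4.3.3) was used for the main test. The function filterByExpr chose the genes (minimum count 10, minimum total 15), libraries were scaled by TMM, and a quasi-likelihood model with a coefficient per genotype was fitted to all 6 libraries. The Benjamini-Hochberg adjustment covered the 12117 genes, and 0.05 was the threshold. Intervals are 95% intervals from the same fit. The members and lists were chosen with earlier results of these data known. Genes named were the members, wider pathway genes past the threshold against *Ikzf3+/+*, the gene with the most reads in each role, marker genes, *Ikzf3* and the 3 genes closest to *Dtx1*; *Dtx2*, *Dtx4*, *Il2ra* and genes named beside list sums were added after seeing values. Log2 CPM for correlations used a prior count of 2. Replicates of a genotype differed beyond counting error (chi-square per degree of freedom 10.4 to 13.5). The tests were first run on simulated counts that gave all genes the same spread and placed large changes only in well-counted genes. That run does not bear on small differences or on genes with few reads. Positions and exon lengths are from GENCODE vM21 on GRCm38, and sequences from RefSeq on GRCm38.p6. Alternatives were DESeq2 1.42.0, its size factors, other filters, the likelihood ratio test, a replicate block, fewer genotypes and leaving out each library.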

Additional observations from a re-analysis of the deposited data

How the results depend on the processing

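Of 350 refits of the members' fold changes in 4 comparisons, 11 gained a call; none was called in the fits reported, so none could be lost. In *Ikzf3N159S/N159S* against *Ikzf3+/+* cells the number of members called went from 0 to 1 (*Dtx1*) with no low-count filter, with only the genotypes compared, with the likelihood ratio test and with the block by genes detected, and was 0 to 1 when a library was left out. The wider pathway count there went from 3 to 5 in DESeq2, 6 with no filter, 6 with only the genotypes compared, 5 with the likelihood ratio test and 12 with the block by genes detected, and was 0 to 6 without a library. The share of all tested genes called was 5.26% in the fit reported and 5.54%, 4.24%, 6.14%, 8.6% and 14.5% under these 5 settings, and 1.74 to 6.01% without a library. In *Ikzf3+/N159S* against *Ikzf3+/+* cells the pathway count went from 0 to 3, 4, 1, 3 and 10 under the same 5 settings, where the share of all tested genes went from 1.75% to 2.81%, 2.55%, 1.81%, 5.28% and 11.7%, and was 0 to 2 without a library. In *Ikzf3N159S/N159S* against *Ikzf3+/N159S* cells the member count went from 0 to 1 with the likelihood ratio test (*Hes1*) and to 2 with the block by genes detected, and was 0 to 1 without a library; against the midpoint it went to 1 with that block. The cause was not tested. The block by genes detected and an earlier form of the quasi-likelihood fit were chosen after seeing the data, and *Dtx1* itself follows that block.

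The replicate numbers do not pair the libraries (correlations of deviations -0.17, -0.22 and 0.24). With a replicate block, 0 members were called in each comparison, and all genes called in *Ikzf3N159S/N159S* against *Ikzf3+/+* cells went from 637 to 514. *Hes1* could not be fitted with at least 10 counts in every library. Depth left *Notch3*, *Ptcra*, *Heyl* and *Hes5* untested and left *Hes1* with 5 reads in each *Ikzf3N159S/N159S* library.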
